A study of Mus musculus with 8 samples.

Results

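The interferon-induced GTPases are proteins that mouse cells make in large amounts after exposure to interferon and use against microbes inside the cell. The 8 genes described here were Iigp1, Igtp, Irgm1, Irgm2, Tgtp1, Gbp2, Gbp3 and Gbp7, chosen by name with earlier results of these data known. Each was read from the brightest of the probe sets that the array annotation assigns to it alone. Of the 8, 7 had such a probe set, among 18193 genes on the array that did. The only probe set of Tgtp1 also names its near-identical copy Tgtp2, so it was not used and Tgtp1 has no value here. All 7 genes with a value passed the filter on low signal and were among the 11345 genes tested.

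The tumours were B16F1, a melanoma line of C57BL/6 origin, injected subcutaneously into 5 to 7 mice of each genotype, aged 8 to 12 weeks. In 1 kind of host both TNF receptor genes, Tnfrsf1a and Tnfrsf1b, were disrupted throughout the body (TNFR 1, 2 -/-, called TNFR KO here; per the labels' protocols the breeding line was B6;129S-Tnfrsf1a[tm1Imx] Tnfrsf1b[tm1Imx]/J), and in the other both were intact (C57BL/6 wild type, WT; C57BL/6-NCr per the same protocols). The injected tumour cells had not been made receptor-deficient and were the same in all 4 groups, so the genotype is that of the host cells. The groups were TNFR KO irradiated, WT irradiated, TNFR KO untreated and WT untreated. Irradiated tumours received a single dose of 20 Gy and all tumours were excised 5 h after treatment. RNA of the tumours of a group was pooled into 1 pool, and each pool was read on 2 duplicate arrays, so the arrays of a pool show technical spread only and the difference between mice within a group was not measured.

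Mouse interferon-induced GTPases include immunity-related GTPases (IRG proteins) and larger guanylate-binding proteins (GBPs). Among the IRG proteins, Irgm1, Irgm2 and Igtp sit on the cell's own membranes and hold the effectors inactive there, while Iigp1 and Tgtp1 are effectors that load onto and break the vacuoles in which parasites and some bacteria live. Interferon-γ acts through its receptor, the kinases JAK1 and JAK2 and a DNA element called GAS, and type I interferons act through a complex that contains STAT2 and IRF9 and binds an element called ISRE, which IRF1 also binds.

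Because the genes share this known mode of induction, the DNA before their starts is shown first. RefSeq promoter windows (build GRCm38.p6) reach from 250 bases before an annotated transcription start to 50 after it. Of the 8 genes, 7 had a window in the table used, Gbp3 for 2 starts, and no window of Iigp1 was used. The stretches below run 5′ to 3′ on the strand of the gene, 100 bases each, and end 11 bases before the start. Capitals mark matches to the ISRE core (GAAA, NN, GAAA, where N is any base), read on both strands and therefore also as TTTC, NN, TTTC, and to the GAS core TTCNNNGAA, which reads the same on both strands. Igtp lies at chr11:58199446-58199545, plus strand, Irgm1 at chr11:48871431-48871530, minus strand, and Irgm2 at chr11:58214867-58214966, plus strand. Gbp2 lies at chr3:142620553-142620652, plus strand, Gbp3 at chr3:142559934-142560033, plus strand, and Gbp7 at chr3:142530226-142530325, plus strand.
Igtp: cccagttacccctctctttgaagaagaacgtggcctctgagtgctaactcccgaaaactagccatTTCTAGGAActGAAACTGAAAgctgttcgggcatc
Irgm1: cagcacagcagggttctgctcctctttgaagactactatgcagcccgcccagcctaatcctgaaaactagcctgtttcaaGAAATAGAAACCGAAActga
Irgm2: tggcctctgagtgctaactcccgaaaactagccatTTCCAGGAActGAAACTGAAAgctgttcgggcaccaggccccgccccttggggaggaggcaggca
Gbp2: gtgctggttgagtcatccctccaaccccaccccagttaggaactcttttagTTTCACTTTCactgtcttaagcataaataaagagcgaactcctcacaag
Gbp3: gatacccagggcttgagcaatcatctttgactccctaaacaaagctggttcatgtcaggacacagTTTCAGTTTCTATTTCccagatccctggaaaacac
Gbp7: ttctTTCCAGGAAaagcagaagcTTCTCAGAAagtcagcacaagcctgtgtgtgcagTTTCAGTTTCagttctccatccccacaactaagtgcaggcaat

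All 7 genes with a window held the ISRE core, beginning 24 to 77 bases before the start. Over all 32851 windows of 27025 genes, 3.44% held that core anywhere and 0.895% held it beginning within 80 bases before the start. The limit of 80 bases lies just beyond the farthest match of the 7 genes, so the second share is not independent of their positions. In Irgm1 and Gbp3 the ISRE core occurred as a pair of overlapping matches, and the second annotated start of Gbp3 had none in its window. The GAS core was present in 4 of the 7 genes, Igtp, Irgm2, Tgtp1 and Gbp7, against 8.3% of all windows, and Gbp7 held it at 2 places. In Igtp, Irgm2 and Tgtp1 the GAS core stood directly before the ISRE core with 2 bases between them. Only 5 of the 32851 windows (0.0152%) had that arrangement. The other 2 belonged to Tgtp2 and Gm12185, and all 5 genes lie on chromosome 11.

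These windows are not separate observations. The Igtp and Irgm2 genes are neighbours on chromosome 11, and their windows shared a run of 91 bases with at most 1 mismatch, 61 of them in an unbroken identical run. Gbp7 and Gbp3 are neighbours on chromosome 3, and Gbp2b lies between Gbp3 and Gbp2. A match to these letters is a description of the sequence and not of binding.

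**Figure D1:**
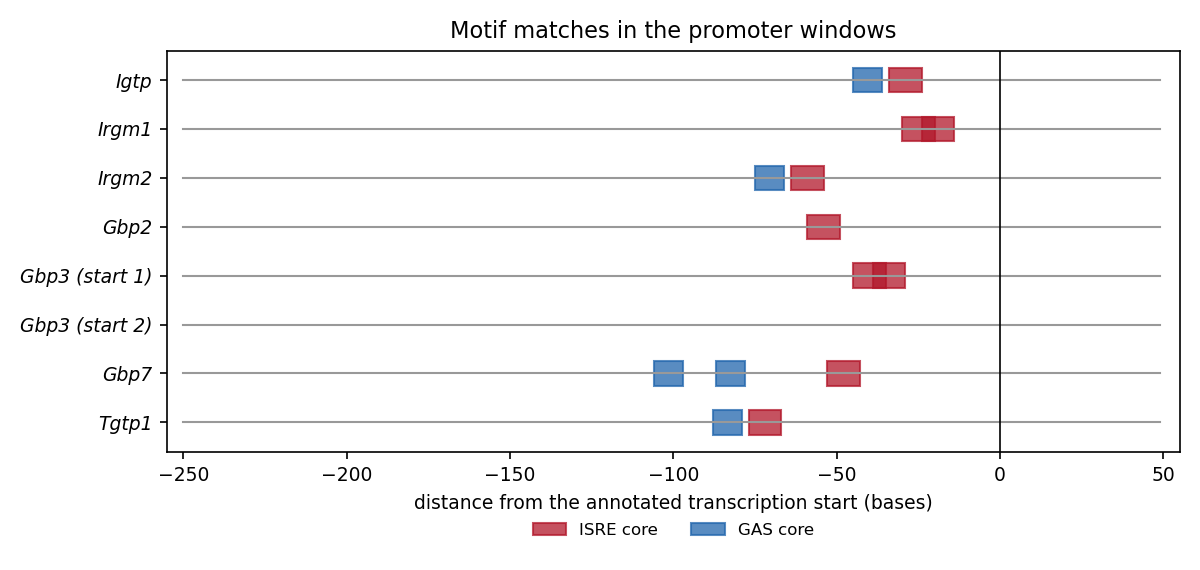
Matches to the ISRE core and the GAS core in the promoter windows, with distance in bases from the annotated transcription start on the horizontal axis and 1 row per window. Boxes span the matched bases, with a darker overlap where 2 matches overlap; each row but the second start of Gbp3 has an ISRE core, beginning 24 to 77 bases before the start.

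On the arrays, the 7 GTPase genes were lower in tumours of TNFR KO hosts than in tumours of WT hosts, by 2.03-fold for Igtp up to 4.68-fold for Iigp1 over both treatments. All 7 passed the test of the host difference. In this comparison 18.9% of all tested genes were lower in TNFR KO by the same rule and 12% were higher. For each of the 7, all 4 TNFR KO arrays lay below all 4 WT arrays, an ordering that 21.7% of tested genes showed. Values below are MAS5 signals, the authors' linear measure of probe set brightness scaled to the same trimmed mean on every array, and they are compared between arrays and not between genes. In RNA of a whole tumour, fewer cells of a type and less RNA per cell cannot be told apart.

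Among the regulators on the cell's own membranes, Igtp (also known as Irgm3) gave signals of 769.8 and 706 on the TNFR KO irradiated arrays and 2048 and 2103.5 on the WT irradiated arrays. It gave 824 and 665 on the TNFR KO untreated arrays and 1111 and 1096 on the WT untreated arrays. The WT irradiated pool thus stood apart, above the other 3, and the TNFR KO pools overlapped each other. Over both treatments Igtp was lower in TNFR KO by 2.03-fold (log2 difference -1.02 ± 0.21 SE, limma adjusted p = 0.0055). It was 2.78-fold lower in the irradiated pools and 1.48-fold lower in the untreated pools.

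Irgm1, a regulator with known roles in autophagy and in resistance to mycobacteria, gave 788.5 and 835 on the TNFR KO irradiated arrays and 1817 and 1934 on the WT irradiated arrays. On the untreated arrays it gave 560.5 and 814.5 in TNFR KO and 1599 and 1604 in WT. Its duplicates in the TNFR KO untreated pool lay far apart and overlapped the TNFR KO irradiated pool. The host difference was -1.21 ± 0.16 on the log2 scale (2.31-fold lower in TNFR KO, limma adjusted p = 0.000558). It was nearly the same in both treatments, 2.28-fold lower in irradiated and 2.34-fold lower in untreated tumours.

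Irgm2, the regulator next to Igtp in the genome, gave 212 and 273.5 on the TNFR KO irradiated arrays and 933 and 1075 on the WT irradiated arrays. It gave 318.5 and 384.5 on the TNFR KO untreated arrays and 776 and 706.5 on the WT untreated arrays. All 4 pools stood apart, with TNFR KO irradiated lowest and WT irradiated highest. The host difference was -1.52 ± 0.22 (2.86-fold lower in TNFR KO, limma adjusted p = 0.000739), with 3.96-fold in irradiated and 2.07-fold in untreated tumours. Its neighbour Igtp, with which it shares the promoter stretch shown above, differed by 2.78-fold and 1.48-fold in the same pools.

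Iigp1, the effector also called Irga6, gave 188 and 163 on the TNFR KO irradiated arrays and 1271 and 1200.4 on the WT irradiated arrays. On the untreated arrays it gave 286 and 265.5 in TNFR KO and 972 and 948 in WT. The 4 pools did not overlap and kept the order seen for Irgm2. Its host difference was -2.23 ± 0.22 (4.68-fold lower in TNFR KO, limma adjusted p = 0.000245). The fold was 6.55 in irradiated and 3.35 in untreated tumours.

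Of the guanylate-binding proteins, which assemble as coats on vacuoles and bacteria and promote their lysis, Gbp2 gave 244 and 213.5 on the TNFR KO irradiated arrays and 1859 and 1621 on the WT irradiated arrays. It gave 267 and 281 on the TNFR KO untreated arrays and 663 and 631 on the WT untreated arrays. The WT irradiated signals were far above all others, and both TNFR KO pools were far below both WT pools. The host difference was -2.02 ± 0.30 (4.05-fold lower in TNFR KO, limma adjusted p = 0.00092). Gbp2 had the widest gap of the 7 genes in irradiated tumours, 7.17-fold, against 2.29-fold in untreated tumours.

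Gbp3, a further guanylate-binding protein, gave 129 and 118 on the TNFR KO irradiated arrays and 336 and 401 on the WT irradiated arrays. On the untreated arrays it gave 141 and 124 in TNFR KO and 238 and 214 in WT. The TNFR KO pools overlapped each other and the WT pools did not. The host difference was -1.08 ± 0.20 (2.11-fold lower in TNFR KO, limma adjusted p = 0.00279), with 2.74-fold in irradiated and 1.63-fold in untreated tumours.

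Gbp7, which has a known part in delivering oxidase and autophagy components to bacterial vacuoles in macrophages, gave 124 and 96.0 on the TNFR KO irradiated arrays and 577 and 602 on the WT irradiated arrays. It gave 133.5 and 139.5 on the TNFR KO untreated arrays and 404 and 387 on the WT untreated arrays. The 4 pools did not overlap, although the TNFR KO pools were close together. The host difference was -1.85 ± 0.21 (3.61-fold lower in TNFR KO, limma adjusted p = 0.000295), with 4.83-fold in irradiated and 2.70-fold in untreated tumours.

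**Figure D2:**
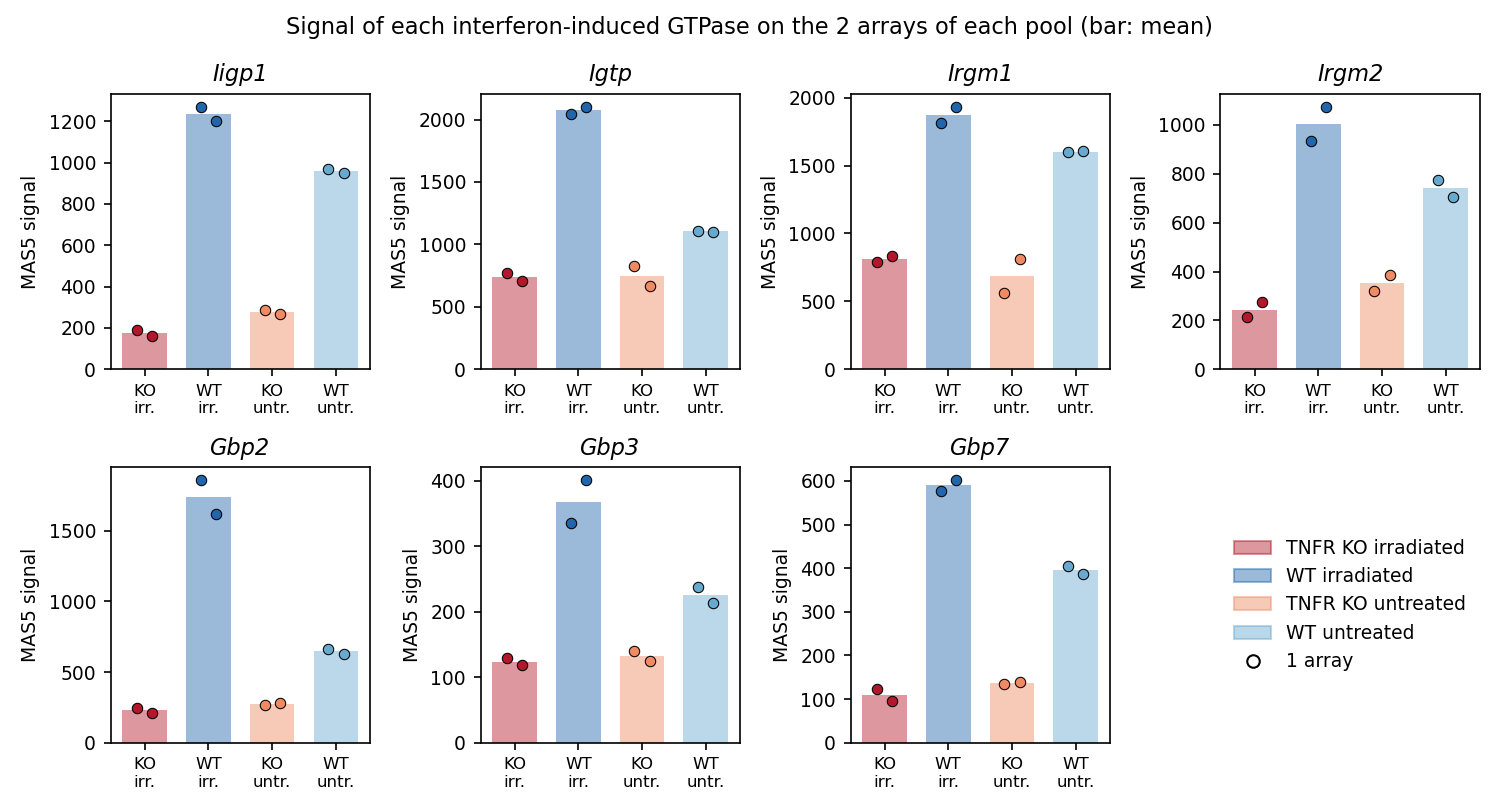
MAS5 signal (vertical axis, from 0, with its own scale for each gene) of the 7 GTPase genes in the TNFR KO irradiated, WT irradiated, TNFR KO untreated and WT untreated pools; points are the 2 arrays of a pool and bars their mean. In all 7 panels the 4 TNFR KO points lie below the 4 WT points, and the WT irradiated bar is the highest.

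The order of the host differences was Iigp1, Gbp2, Gbp7, Irgm2, Irgm1, Gbp3 and Igtp, with a median log2 difference of -1.52 against 0.085 over all tested genes. No neighbours in that order differed by more than the sum of their standard errors. Effector, regulators and GBPs were mixed along it. The single-pool gaps were past 2-fold for 7 of 7 genes in irradiated tumours (7.54% of tested genes) and for 5 of 7 in untreated tumours (6.31%), the exceptions being Igtp and Gbp3. The gap was larger in irradiated than in untreated tumours for 6 of 7 genes, against 50.9% of all tested genes, with Irgm1 as the exception. The size of that change, log2 of the irradiated gap minus log2 of the untreated gap, was -1.65 for Gbp2, -0.97 for Iigp1, -0.94 for Irgm2, -0.91 for Igtp, -0.84 for Gbp7, -0.75 for Gbp3 and 0.03 for Irgm1. The 5th percentile of this value over all tested genes was -0.79. It was at or below -1 for Gbp2 alone, against 3.06% of tested genes, and with 1 pool per group it has no test.

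**Figure D3:**
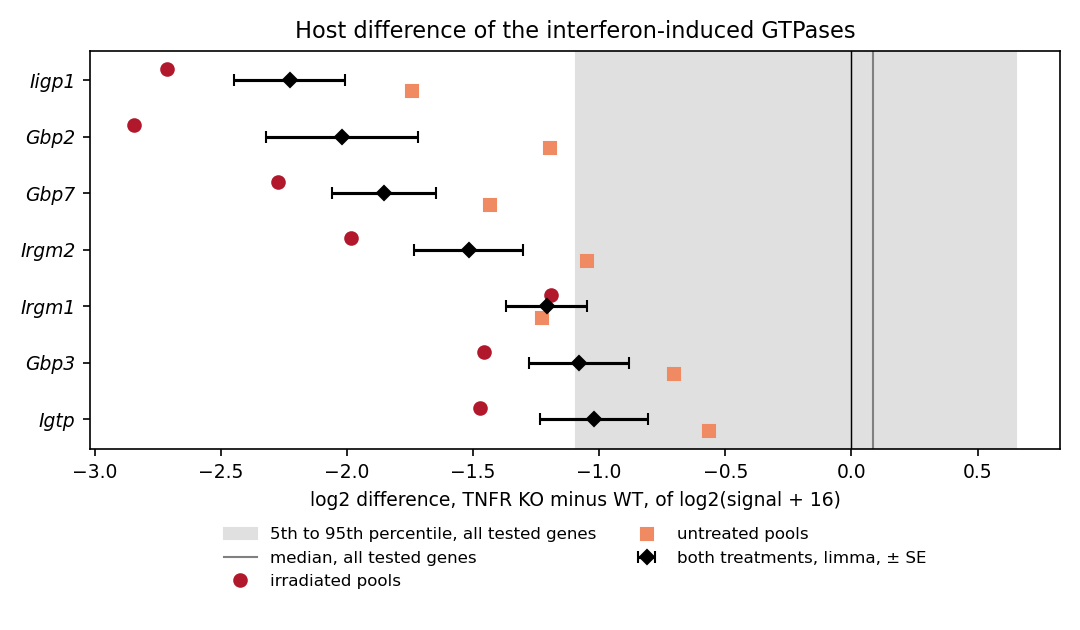
Log2 difference of signal, TNFR KO minus WT (horizontal axis), for the 7 genes, with circles for the irradiated pools, squares for the untreated pools and diamonds with SE for the limma estimate over both treatments; the grey band spans the 5th to 95th percentile of all tested genes, -1.09 to 0.65. For 6 of the genes the circle lies left of the square, and for Irgm1 they nearly coincide.

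Probe sets other than the brightest were present for 3 genes and gave lower signal in TNFR KO in both treatments. The dimmer probe set of Iigp1 differed by -1.29 on the log2 scale over both treatments, -2.19 in irradiated and -0.39 in untreated tumours. The smaller size there lay mostly in the untreated pools, where it read 103 and 127 in TNFR KO and 156 and 153 in WT. The other probe set of Gbp2, of a type that may also bind related transcripts, differed by -2.40, and that of Gbp7 by -1.50.

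The test rests on 2 pools per host, 1 irradiated and 1 untreated, and 1 step decided whether its threshold was met. Without the filter on low signal, limma called none of the 7 (adjusted p 0.0622 to 0.115) and no gene at all in this comparison, although all 7, and 4487 genes in all, had an unadjusted p below 0.05. Igtp also lost its call when WT untreated replicate 1 was left out (log2 difference -1.01, limma adjusted p = 0.0522), and over the 18 alternatives the adjusted p of the 7 genes ran from 4.51e-35 to 0.115.

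The arrays of the hosts also differed in how their RNA had been prepared for labelling. The 4 bacterial poly-A control transcripts, which are added to RNA before labelling, gave signals of 5 to 52.9 on TNFR KO arrays and 2736 to 28572 on WT arrays. By the breeding lines named above, the strain background may also have differed between the hosts. Receptor genotype, strain background and preparation therefore cannot be told apart for any host difference given here. The 18S ribosomal RNA controls also differed, with 510.5 to 956 on TNFR KO arrays and 284 to 345 on WT arrays. Of the controls added at hybridisation, bioB read 325 to 364.5 in TNFR KO irradiated, 445 to 469.5 in WT irradiated, 330.2 to 337.2 in TNFR KO untreated and 337.6 to 359 in WT untreated pools. The hosts did not overlap in irradiated pools and barely stood apart in untreated pools. The control cre was lower in TNFR KO in irradiated pools (18218.8 to 18514.9 against 20313.1 to 20747.6). It was higher in TNFR KO in untreated pools (16280.7 to 16452.3 against 14999.1 to 16248.8). Of the targeted genes, Tnfrsf1a was not lower in TNFR KO (log2 difference 0.22 ± 0.16, limma adjusted p = 0.314) and Tnfrsf1b was (-1.06 ± 0.23, limma adjusted p = 0.00708, a call that ended, at adjusted p 0.05004 to 0.105, without any of 3 arrays, TNFR KO irradiated replicate 2, WT untreated replicate 1 and WT irradiated replicate 1, where the difference was -1.15 to -0.94). The tumour cells carry both genes and the position of the probes relative to the disruptions is not known here.

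After irradiation, 4 of the 7 GTPase genes differed in opposite directions in the 2 hosts. In TNFR KO tumours the log2 difference of irradiated minus untreated was -0.61 for Iigp1, -0.51 for Irgm2, -0.28 for Gbp7, -0.25 for Gbp2, -0.09 for Gbp3, -0.01 for Igtp and 0.26 for Irgm1. In WT tumours it was 1.40 for Gbp2, 0.90 for Igtp, 0.66 for Gbp3, 0.56 for Gbp7, 0.43 for Irgm2, 0.36 for Iigp1 and 0.23 for Irgm1. The irradiated WT arrays lay above the untreated WT arrays for all 7 genes, which held for 31.3% of tested genes (Irgm1 by the least, and it turned to -0.03 with arrays centred on their median). In TNFR KO the irradiated arrays lay below the untreated ones for 4 genes, Iigp1, Irgm2, Gbp2 and Gbp7, against 35.7% of tested genes, and for the other 3 they overlapped. These 4 genes thus lay higher in WT and lower in TNFR KO after irradiation, as did 6.84% of tested genes. For Gbp7 this did not hold on its dimmer probe set, where the TNFR KO pools overlapped. Counted separately, irradiated arrays lay above untreated ones in WT, and below them in TNFR KO, for 12 and 11 of 12 tested macrophage and monocyte markers. The counts were 6 and 8 of 8 for fibroblast, 6 and 7 of 9 for endothelial and 3 and 1 of 3 for T and NK cell markers. They were 5 and 1 of 5 for neutrophil, 2 and 0 of 4 for dendritic cell and 6 and 3 of 10 for melanocyte markers. The opposite ordering was thus not particular to the GTPases. Control signals moved with radiation in WT as well: the poly-A controls were 1.64 to 2.20-fold and the hybridisation controls bioB and cre each 1.31-fold as bright on irradiated as on untreated arrays, beside 1.17 to 2.64-fold for the GTPases. In TNFR KO, bioB and cre were 1.03-fold and 1.12-fold as bright. The 18S ribosomal RNA control was 1.79-fold as bright on irradiated as on untreated arrays in TNFR KO, and 1.16-fold in WT. The part of preparation in the radiation differences was not tested.

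Only Gbp2 in WT, at 2.64-fold, was past 2-fold (2.57% of tested genes were, upward), and none was in TNFR KO (0.608% were, downward). These single-pool differences are descriptions with no test. Centring every array on its median moved the median of all genes in the WT comparison by more than 0.1, to -0.28. In that scale the 6 genes other than Irgm1 read 0.10 to 1.14. The other probe set of Gbp2 gave a log2 difference of 1.55 in WT and -0.72 in TNFR KO. That of Iigp1 gave 1.05 and -0.75, and that of Gbp7 gave 0.68 and -0.14. On this Gbp7 probe set the TNFR KO arrays overlapped, with 85.3 and 125.7 irradiated against 101.2 and 133.5 untreated.

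Over both hosts, none of the 7 genes passed the test of radiation. The limma log2 differences were -0.13 for Iigp1, 0.45 for Igtp, 0.24 for Irgm1, -0.04 for Irgm2, 0.58 for Gbp2, 0.29 for Gbp3 and 0.14 for Gbp7, with adjusted p between 0.326 and 0.948. None had an unadjusted p below 0.05 in limma, and 1.55% of tested genes were called higher and 0.353% lower. This estimate averages the 2 hosts. Gbp2 was called with the filter at the 75th percentile of signal (limma adjusted p = 0.0197) and with the limma-trend variant (0.0191).

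**Figure D4:**
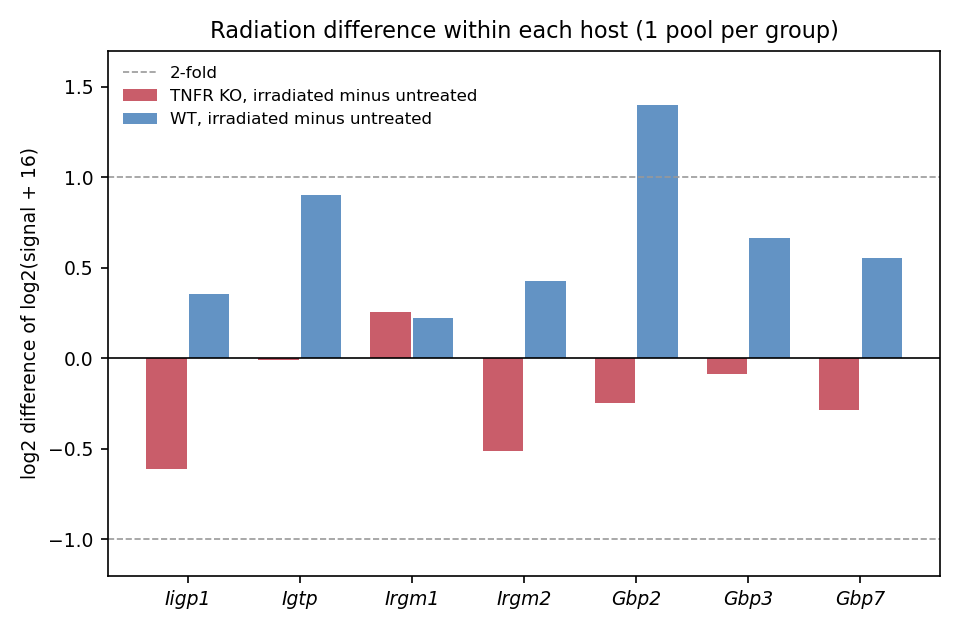
Log2 difference of irradiated minus untreated signal (vertical axis) for each of the 7 genes, in TNFR KO hosts and in WT hosts, with 1 pool per group and dashed lines at 2-fold. The WT bars are all above 0, from 0.23 for Irgm1 (-0.03 with median-centred arrays) to 1.40 for Gbp2, and the TNFR KO bar is above 0 for Irgm1 alone (Igtp, at -0.01, reads 0.05 with quantile normalization).

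Of 18 further genes, listed as interferon-induced GTPases or as relatives of them, 8 were read by a probe set of their own and 4 were tested. Ifi47, an IRG protein known as Irgd, was lower in TNFR KO by -1.31 ± 0.17 (limma adjusted p = 0.000438). Gbp6 was also lower, by -1.71 ± 0.31 (0.00249, and 0.0509 at -1.70 without WT untreated replicate 1). Mx1, an antiviral GTPase induced by type I interferon, differed by -0.41 and did not pass (adjusted p = 0.0897). Irgq, an IRG-like protein, was higher by 0.69 ± 0.17 (0.0111), but by 0.35 (0.161) when the probe sets of a gene were averaged. Irgc1, Gbp2b, Gbp8 and Mx2 were below the level tested.

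Upstream of the GTPases, the lists held interferon ligands, receptors and JAK kinases (10 of 18 tested) and interferon transcription factors and inhibitors (17 of 20 tested). Their median host differences over both treatments were -0.20 and 0.02. For the first list the median was -0.45 in irradiated and -0.02 in untreated tumours. For the second it was -0.22 and 0.29. In the first list 2 genes were lower in TNFR KO and 1 was higher. Ifngr2, the signalling chain of the interferon-γ receptor, was higher by 0.79 ± 0.16 (limma adjusted p = 0.00473). Jak1 was lower by -0.77 ± 0.20 (0.0151) and Jak2 by -0.59 ± 0.16 (0.0206). Both kinase calls were lost at adjusted p 0.0573 to 0.0697 when certain arrays were left out, and also with all arrays kept, under quantile normalization (0.0675 for Jak1 and 0.0655 for Jak2) and without the filter on low signal (0.152 and 0.143). For Jak1 the arrays were TNFR KO irradiated replicate 2, either WT untreated replicate or WT irradiated replicate 1 (log2 -0.80 to -0.74), and for Jak2 they were WT untreated replicate 1 or WT irradiated replicate 1 (-0.53 to -0.52).

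The cytokine itself was dim. Ifng, made mainly by T and NK cells, had pool means of 17.05 in TNFR KO irradiated, 13.2 in WT irradiated, 27.8 in TNFR KO untreated and 5.2 in WT untreated tumours, all under the level tested (68.8). Among the factors, Irf1 differed by 0.02 over both treatments (limma adjusted p = 0.950). It differed by -0.25 in irradiated and by 0.29 in untreated tumours, with arrays apart in both, so the average joins opposite differences. Irf7, an interferon-induced activator of type I interferon genes, differed by -0.18 over both treatments (limma adjusted p = 0.676), by -1.05 in irradiated and by 0.68 in untreated tumours. Its irradiated minus untreated difference was -0.49 in TNFR KO and 1.24 in WT, with arrays apart in both, so that it resembled the GTPases in irradiated tumours and went the other way in untreated tumours. The 1 gene of this list called for host was Ptpn2, a phosphatase that acts on JAK kinases, at -0.74 ± 0.18 (0.0123; -0.78 to -0.70 and 0.0540 to 0.0699 without WT irradiated replicate 1 or WT untreated replicate 1).

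For radiation over both hosts, Socs3, an inhibitor of JAK signalling, was higher by 0.98 ± 0.18 (limma adjusted p = 0.0192). Nlrc5, the activator of MHC class I genes, was higher by 1.04 ± 0.20 (0.0298), and Il15, a cytokine for NK and memory T cells, by 0.77 ± 0.17 (0.0480). None of these 3 calls held when any 1 of the 8 arrays was left out (log2 0.65 to 1.12, adjusted p 0.0594 to 0.252).

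**Figure D5:**
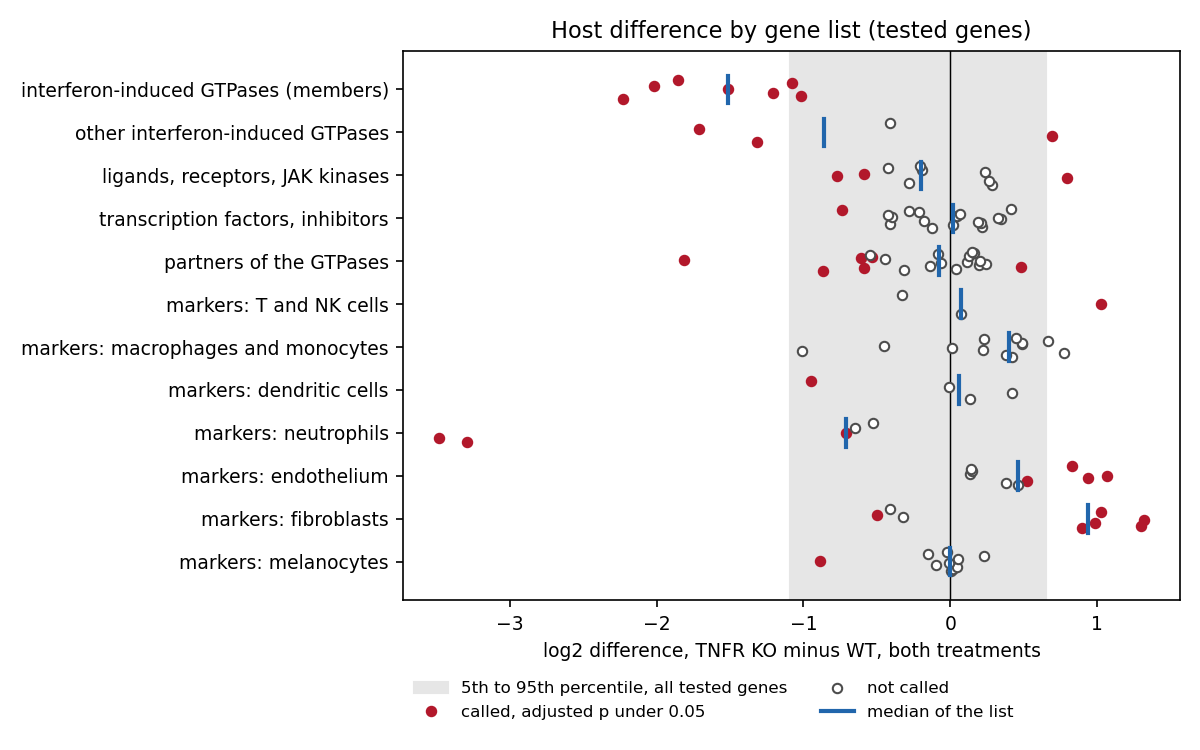
Log2 host difference, TNFR KO minus WT (horizontal axis), of every tested gene in each list, 1 row per list; filled points were called by limma, open points were not, bars are list medians and the grey band is the 5th to 95th percentile of all tested genes. The 7 GTPases lie between -2.23 and -1.02, and the lists of ligands, receptors and kinases and of transcription factors have medians of -0.20 and 0.02.

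Markers of the cells a melanoma can hold were followed beside the GTPases, whose summed signal was 2406 to 2456 in TNFR KO irradiated, 8841.5 to 8937 in WT irradiated, 2530.3 to 2674 in TNFR KO untreated and 5586.5 to 5763 in WT untreated tumours. All 10 melanocyte markers were bright enough to be tested. Their sum was 201709 to 213020 in TNFR KO irradiated, 212505 to 235908 in WT irradiated, 198613 to 210060 in TNFR KO untreated and 190816 to 202646 in WT untreated tumours, and 1 of the 10, Mitf, was called lower in TNFR KO.

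Of 15 T and NK cell markers read, 12 were below the level tested, Cd3d, Cd3e, Cd3g, Cd4 and Ncr1 among them. Over all 15, 6 were lower and 2 higher in TNFR KO with arrays apart in irradiated tumours, and 3 were lower and 3 higher in untreated tumours. Gzmb, a protease of cytotoxic granules, had pool means of 44.7 in TNFR KO irradiated, 173 in WT irradiated, 27.25 in TNFR KO untreated and 88.1 in WT untreated tumours, lower in TNFR KO in both treatments with arrays apart. Cd3e, a chain of the T cell receptor complex, went the other way in irradiated tumours and had pool means of 49.5 in TNFR KO irradiated, 31.4 in WT irradiated, 27.75 in TNFR KO untreated and 21.25 in WT untreated tumours. Cd8a, the coreceptor of cytotoxic T cells, differed between hosts by 0.08 (limma adjusted p = 0.746). The sum over the T and NK cell list was 1328 to 1407 in TNFR KO irradiated, 1450.1 to 1631 in WT irradiated, 1416 to 1487 in TNFR KO untreated and 1009.6 to 1019.7 in WT untreated tumours. The direction in untreated tumours rested on Thy1, which fibroblasts also express. Without it, an alternative chosen after the values were seen, the other 14 markers summed to 681 to 839.7 in TNFR KO irradiated, 1055 to 1227.5 in WT irradiated, 600.3 to 693.5 in TNFR KO untreated and 725 to 744 in WT untreated tumours. That sum was lower in TNFR KO in both treatments, and Gzmb (27.25 and 88.1 in untreated tumours) is part of it. Counted by marker, untreated tumours showed no common direction, with 3 lower and 3 higher as given above. The part of T and NK cells in the GTPase differences was not tested.

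Macrophage and monocyte markers, of which 12 of 14 were tested and none called for host, had a sum of 11072.5 to 11537 in TNFR KO irradiated, 14921 to 15267 in WT irradiated, 16692 to 17174 in TNFR KO untreated and 7990.2 to 7992 in WT untreated tumours. In irradiated tumours the sum was lower in TNFR KO, and in untreated tumours it was higher. Dendritic cell markers (4 of 9 tested, with H2-Ab1 called lower, a call lost without any 1 of 5 arrays and with quantile normalization) summed to 4725 to 4822 in TNFR KO irradiated, 6602 to 6684 in WT irradiated, 4091 to 4275 in TNFR KO untreated and 3401 to 3764 in WT untreated tumours.

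Of 8 neutrophil markers read, 5 were tested and 3 were called lower in TNFR KO. Leaving out any 1 array lowered that count to 2, since Csf3r lost its call each time (limma adjusted p 0.0505 to 0.299). The sum over the 8 was 1309 to 1341 in TNFR KO irradiated, 23613 to 24427 in WT irradiated, 1133 to 1156 in TNFR KO untreated and 3675 to 4099.8 in WT untreated tumours. S100a8 and S100a9, the subunits of calprotectin, were lower by -3.29 ± 0.41 (limma adjusted p = 0.000385) and -3.48 ± 0.43 (0.000393), and made up most of the sum. Without them, an alternative likewise chosen after the values were seen, the other 6 summed to 403.5 to 418 in TNFR KO irradiated, 915 to 945 in WT irradiated, 327 to 361 in TNFR KO untreated and 297 to 308 in WT untreated tumours. These were lower in TNFR KO in irradiated tumours and higher in untreated tumours. In TNFR KO hosts the sum over all 8 was higher in irradiated than in untreated tumours, while the GTPase sum was lower.

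Endothelial markers (9 of 10 tested) had 4 genes called higher and none lower, and fibroblast markers (8 of 10 tested) had 5 called higher and 1 lower. With 1 array left out the fibroblast counts were 1 to 5 higher, the 1 without WT untreated replicate 1, and 0 lower in all 8 cases, and the endothelial count was 3 to 4. The part of these cells in the GTPase differences was not tested.

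Across the 8 arrays, the genes whose profile lay nearest to the mean profile of the 7 GTPases, by Euclidean distance of centred log2 signal, were Abca1 (0.362), Eef1akmt2 (0.456), Ifit1 (0.485), Mbnl2 (0.486) and Zfp53 (0.494). Abca1 exports cholesterol and Ifit1 is an interferon-induced antiviral protein, while Mbnl2 is a splicing factor. The GTPases themselves lay at 0.466 for Gbp7 up to 1.08 for Iigp1, so the 5 genes were about as near to the mean as Gbp7 or nearer. The likeness is over 8 arrays of only 4 pools.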

How the data were processed

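Each of 4 RNA pools was hybridised to 2 Affymetrix mouse whole-genome expression arrays. The deposited values are MAS5 signal intensities, one per probe set, made by the authors with MAS5 per the submitters' processing notes (version not given in the sources used here). The 2% trimmed mean was equal on all arrays. Of 45101 probe sets, 34945 name 1 gene; the brightest stood for its gene. Values were log2(signal + 16), which understates the change of dim genes, and were averaged over the duplicates of a pool, since these are technical.

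Genes at or above the median log2 signal of all probe sets other than controls (6.41, a signal of 68.8) were tested. Host and treatment were fitted as additive terms to the 4 pool means in limma 3.58.1 (R 4.3.3) with 1 residual degree of freedom, moderated across genes, and Benjamini-Hochberg adjustment over all 11345 genes at 0.05. P-values therefore do not measure the spread between mice, and the number of arrays limits precision. Differences between single pools are called past 2-fold with arrays that do not overlap. Duplicates correlated at 0.975 to 0.981. The fit was also run on simulated pools whose variances were drawn from its own fitted prior. Such a run cannot check the effect of preparation or of the spread between mice.

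The members and lists were chosen with earlier results of these data known. Named genes were all members, the other measured GTPases, up to 4 called genes per list and fit with the smallest adjusted p, Ifng, Irf1, Cd3e and Cd8a, the targeted receptor genes and the 5 nearest profiles. Markers are given mostly as counts, and Irf7, Gzmb, Atg5 and Atg7 were added after their values were seen. Motifs were searched in RefSeq windows with Python 3.11.15, and figures were drawn with matplotlib 3.10.9. Normalization, pseudocount, filter, probe set choice, moderation, fold threshold and each array left out were varied.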

Additional observations from a re-analysis of the deposited data

Results flagged for a closer look

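For 4 genes both irradiated arrays lay below both untreated arrays in TNFR KO hosts and above them in WT hosts, and for none of them was this difference between the hosts tested, since each group is 1 pool. The log2 radiation difference in TNFR KO minus that in WT was -1.65 for Gbp2, -0.97 for Iigp1, -0.94 for Irgm2 and -0.84 for Gbp7. On the dimmer probe set of Gbp7 the TNFR KO arrays overlapped, so the opposite ordering did not hold there. The same opposite ordering was found in 6.84% of all tested genes and was not particular to the GTPases. Of 12 tested macrophage and monocyte markers, 12 lay higher after irradiation in WT and 11 lower in TNFR KO, with arrays apart. For neutrophil markers these counts were 5 and 1 of 5.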

How the results depend on the processing

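The 7 GTPase genes were lower in TNFR KO in every alternative that tested them, and all tested members stayed called except without the filter on low signal (0 members, 0 genes higher and 0 lower) and for Igtp without WT untreated replicate 1. Genes called higher in TNFR KO numbered 1364 and lower 2140. Higher calls became 502 with median-centred arrays (19.4% of calls against 38.9%), 2087 with limma-trend, 3471 with 8 arrays as samples and 3234 (53% of calls) with the replicate block added. Leaving out 1 array gave 500 to 983 higher, 1534 to 1921 lower, and 6 to 7 members lower.

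Radiation calls were less stable, at 176 higher and 40 lower (81.5% higher). They were 11 and 1 with quantile normalization (91.7%), 153 and 148 with median centring (50.8%), 74 and 10 without pseudocount, 340 and 170 with a pseudocount of 64, 0 and 0 without the filter, 217 and 155 with the filter at the 75th percentile, 271 higher with averaged probe sets, 459 and 321 with limma-trend, 1062 and 1409 with 8 arrays, and 752 and 1019 with the replicate block. One array left out gave 0 to 100 higher and 0 to 17 lower. Gbp2 made the 1 member called with the 75th percentile filter or limma-trend. Signs near 0 turned for Irgm2 (0.0267 with quantile normalization; -0.126 to 0.0448 with 1 array left out), Gbp7 (-0.0081, median centring) and Iigp1 (0.0137, averaged probe sets). The cause of these shifts was not tested.

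At 1.5-fold, 1 member was lower after radiation in TNFR KO and 3 were higher in WT. At 3-fold, 4 members were lower in irradiated TNFR KO, 1 in untreated TNFR KO, and 0 were higher after radiation in WT. The share of all tested genes at these thresholds is not given here, so the counts show only how the threshold moves them. Over the settings with all arrays, 162 to 2053 genes were past the fold and lower in irradiated TNFR KO. In untreated TNFR KO these were 88 to 1766. After radiation, 12 to 521 were lower in TNFR KO and 66 to 832 higher in WT. Without 1 array, 3 to 5 members were past 2-fold in untreated tumours, the 3 without TNFR KO untreated replicate 1. Of all tested genes, 698 to 763 were then past 2-fold and lower. Replicate numbers did not pair the arrays: deviations of same-numbered arrays correlated at -0.032 to 0.052 over 6 pairs of pools. With the replicate block all 7 members remained lower (limma adjusted p up to 0.00541). Median centring moved the median of all genes by over 0.1 for radiation over both hosts (to -0.16) and for the untreated host difference (to -0.12).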

Other observations

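The proteins that the GTPases work with in attacking vacuoles and in inflammasomes showed no common direction between hosts. Of 20 tested, 5 were lower in TNFR KO and 1 was higher, with a median log2 difference of -0.08 against 0.085 over all genes. With 1 array left out, 2 to 5 were lower, the 2 without WT untreated replicate 1, and the 1 higher gene, Atg16l1 (0.48, limma adjusted p = 0.0495), lost its call in all 8 cases (adjusted p 0.0644 to 0.101). Tax1bp1, an autophagy receptor that also restrains TNF signalling, was lowest at -1.81 ± 0.16 (limma adjusted p = 0.000238), and at -0.80 with averaged probe sets. Atg3, an enzyme that attaches LC3-family proteins to membranes and is needed for IRG loading, was lower by -0.87 ± 0.16 (0.00318). Trim21, a receptor for antibody-coated microbes, was lower by -0.61 (0.0169; 0.0502 to 0.0675 at -0.60 to -0.51 without TNFR KO untreated replicate 1, WT untreated replicate 1 or WT irradiated replicate 1). Atg12 was lower by -0.59 (0.0199; 0.0518 to 0.0581 at -0.54 to -0.52 without TNFR KO untreated replicate 2 or WT untreated replicate 1), but by only -0.03 (0.920) with averaged probe sets. Atg5 and Atg7 of the same conjugation pathway differed by -0.32 (0.172) and 0.04 (0.883) and were not called.

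Among tested genes other than the 7, those with the ISRE core in their promoter window were called lower in 71 of 323 cases (22%, median log2 difference 0.066), and those with a window lacking it in 1635 of 8909 cases (18.4%, median 0.086). These shares are a description with no test.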
